A study of Mus musculus with 4 samples.

Results

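The mitochondrial respiratory chain genes were compared between sorted cells labelled as odontoblasts, which deposit dentin, and sorted cells labelled as osteoblasts, which deposit bone. The genes were taken by name from a mouse expression array: every non-control probe whose gene name begins with Nduf, Uqcr or Atp5, is one of the Cox4 to Cox8 subunit genes or Sdha to Sdhd, or is Cyc1 or Cycs. This took 92 gene names with 138 probes, of 24056 gene names with 55681 probes on the array. The rule takes names alone, but it was set with earlier results of these data known.

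Per the labels, the Cy5 channel of each of the 4 arrays held RNA of primary odontoblasts from dental pulp of C57BL/6 mice. The Cy3 channel held RNA of osteoblasts from calvaria, the flat bones of the skull, for which no strain is labelled. The series design calls the cells donor matched, from mice aged 2 weeks that all carried EGFP driven by the 2.3 kb collagen type I promoter. Cells were released by enzymes and sorted for green fluorescence, so both sorts select on a promoter that is active in both cell types. The labels do not say whether an array held RNA of 1 animal or of several. Dyes were not swapped, so dye and cell type cannot be told apart. In RNA of many cells, fewer cells of a type and less RNA per cell cannot be told apart either.

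Markers of the labelled cell types went against the dyes. Wnt10a, a ligand of the tooth germ and odontoblasts, had log2 ratios of Cy5 over Cy3 of -5.91, -6.30, -5.04 and -6.38 on arrays 1 to 4 (mean -5.91, adjusted p = 0.00576). Dspp, which encodes the main dentin phosphoprotein, had -2.98, -1.79, -1.80 and -1.21 (mean -1.95, adjusted p = 0.0607). Ifitm5, a protein of bone-forming osteoblasts, had 6.52, 4.48, 3.89 and 5.32 (mean 5.05, adjusted p = 0.0173). Of the 5 odontoblast markers 4 had means below 0, and all 9 osteoblast markers had means above 0. Of the 9, 6 were above 0 on all arrays, and 2 were called, where 1.26% of all genes were called higher in Cy5. Sp7 and Alpl stood near 0, at 0.02 and 0.05. The channels are therefore named by dye, with the cell type only as labelled. If the labels were exchanged, every direction by cell type below would turn round, while the ratios by dye would stand.

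The respiratory chain is the set of complexes in the inner mitochondrial membrane that carries electrons to oxygen and stores the energy as a proton gradient. Complex I takes electrons from NADH and complex II from succinate, complex III passes them to cytochrome c, and complex IV hands them to oxygen. Complex V, the ATP synthase, lets the protons flow back and makes ATP. Most subunits are encoded in the nucleus and imported, and a small set is encoded in mitochondrial DNA. Osteoblasts are known to rely on glycolysis as well as on the chain.

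No nuclear-encoded chain gene passed the test. Of the 92 names, 90 were tested, and 0 were called at an adjusted p under 0.05 (limma, over all features of the array), where 2.09% of all 19686 genes were called. The lowest adjusted p of a chain gene was 0.115, for Atp5g1. At an unadjusted p under 0.05 there were 5 genes, 5.56% of the 90, where 21.2% of all genes had one. Of these 5, Ndufc2 and Cox7a2l had means above 0, and Atp5g1, Ndufb5 and Cox4i2 below 0. The 2 genes left untested, Cox7b2 and Cox8c, were not well above background in either channel on any array. Both encode subunits known mainly from testis.

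The chain genes lay close to equal signal in the dyes. Their median ratio was 0.17, against 0.01 for all genes, and 69 lay above 0 and 21 below. Of the 90 genes, 88 had a mean within 2-fold of equal signal, 97.8%, against 87.5% of all genes. A mean within 2-fold does not show that a gene was equal: the 95% interval lay wholly within 2-fold for 44 of 90 genes (48.9%, against 47.4% of all genes), and for 8 it reached 4-fold or more. The ratio kept 1 sign on all arrays in 14 chain genes, 15.6%, where 31.4% of all genes did so. The plot of mean ratios by complex shows every gene with its error.

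**Figure D1:**
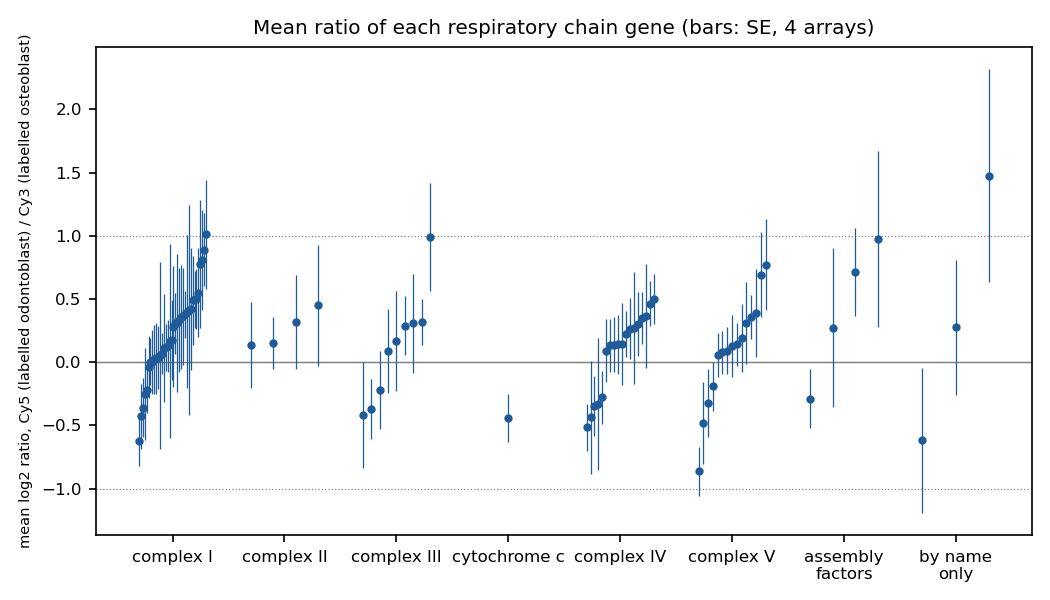
Mean log2 ratio of Cy5 (labelled odontoblast) over Cy3 (labelled osteoblast) for each of the 90 tested genes, ordered by value within its complex. Points are means of 4 arrays and bars are standard errors from limma; dotted lines mark 2-fold, and 88 of the 90 points lie between them.

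The arrays differed more than complexes I to V did, whose means ran from 0.08 to 0.26. Cytochrome c, a single gene, and the assembly factors lay outside that range, at -0.44 and 0.42. Over the 87 tested genes that belong to the chain or its assembly, the mean ratio was 0.19, -0.26, 0.57 and 0.16 on arrays 1 to 4, or 0.17 ± 0.34 (SD, n = 4 arrays, here and below). Array 3 gave the highest ratio of the 4 arrays in 49 of the 87 genes, 56.3%, against 32.3% of all genes. Array 2 gave the lowest in 45, 51.7%, against 23.3% of all genes. On array 3, 62 of the 87 genes lay above 0, and on array 2 only 24. Without array 3 the mean over the 87 genes was 0.03. Array 3 also had the widest ratios over all genes, with an SD of 1.31 against at most 1.005 on the other arrays, and the lowest share of Cy3 spots well above background, 68.2%. Their part in the result was not tested. The heat map of single genes shows the same columns gene by gene.

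**Figure D2:**
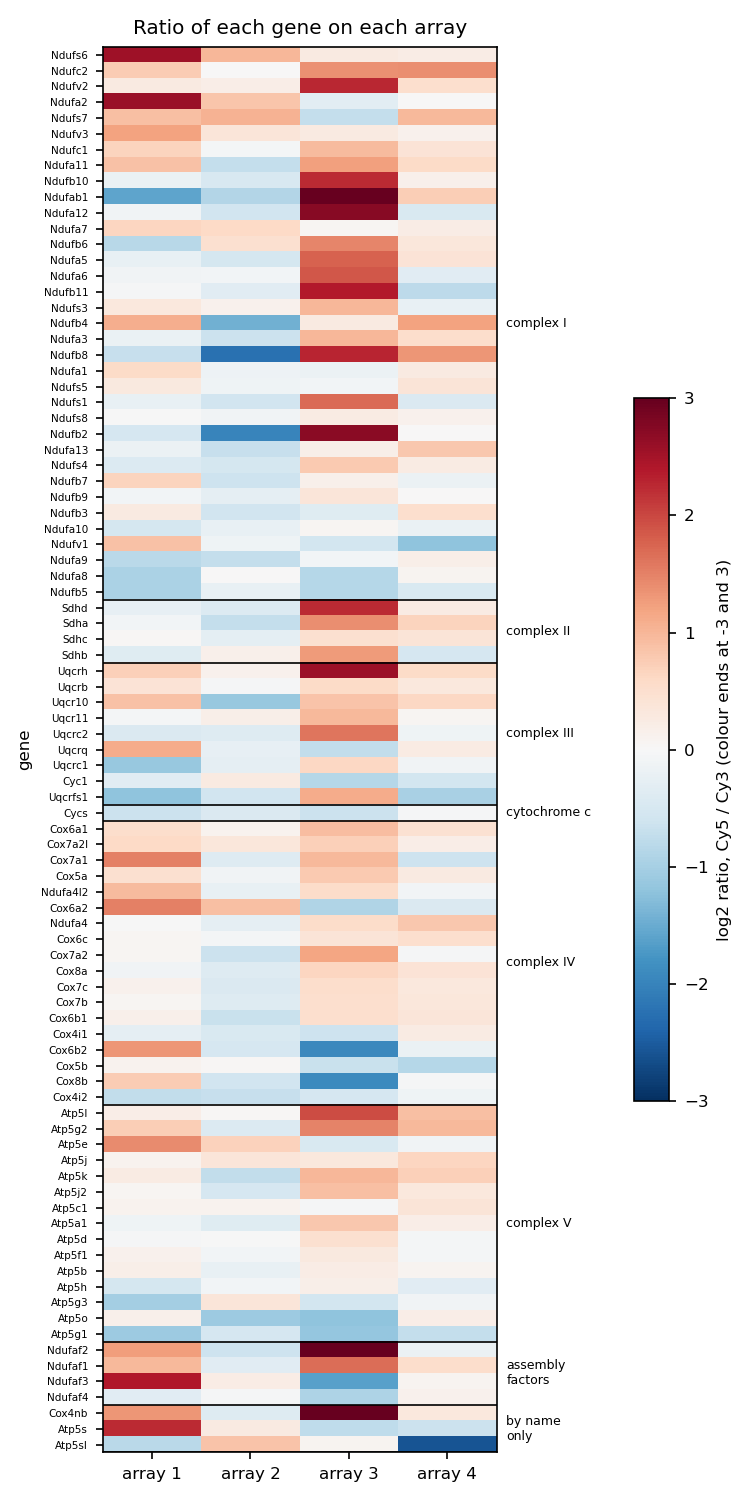
Log2 ratio of Cy5 (labelled odontoblast) over Cy3 (labelled osteoblast) for 89 of the 90 tested genes (rows, grouped by complex and ordered by mean) on each of the 4 arrays (columns). Red is higher in Cy5 and blue higher in Cy3; the column of array 3 holds the most red (26 of the 87 chain genes above 2-fold) and that of array 2 is mostly pale blue (24 of 87 above 0).

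Complex I, which oxidises NADH, was represented by 36 genes and had 0 called, where 2.09% of all genes were called. Its mean ratio was 0.17, -0.30, 0.82 and 0.21 on arrays 1 to 4, or 0.22 ± 0.46, and 0.03 without array 3. Of the 36 genes 30 had means above 0. The SD over arrays was wider than the SD between the genes' means, 0.36. Of the core subunits given here, which together carry the flavin and the iron-sulfur clusters, only Ndufv1 had a mean below 0. Ndufv1, which binds the flavin, had 0.89, -0.13, -0.55 and -1.22 (mean -0.25, adjusted p = 0.737), and its partner Ndufv2 had 0.27, 0.20, 2.27 and 0.50 (mean 0.81, adjusted p = 0.338). The 2 genes thus differed most on array 3. Among other core subunits, mean ratios were 0.12 for Ndufs1, 0.31 for Ndufs3, 0.55 for Ndufs7 and 0.07 for Ndufs8.

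Accessory subunits of complex I, which surround the core, held the extremes. Ndufs6 had the highest mean in the complex, with 2.54, 1.01, 0.27 and 0.23 (mean 1.01, SE 0.43, adjusted p = 0.284). All 4 values were above 0, and array 1 alone lay beyond 4-fold. Ndufc2, a membrane subunit, was above 0 on all arrays too, with 0.76, 0.02, 1.38 and 1.41 (mean 0.89, SE 0.29, adjusted p = 0.200). Ndufb5, another membrane subunit, had the lowest mean, -0.62 (SE 0.20, adjusted p = 0.200), from -0.96, -0.22, -0.86 and -0.45. Its other probes went the other way, as described below. The widest spread belonged to Ndufab1, the acyl carrier protein of mitochondria, with -1.58, -0.88, 3.37 and 0.74. Ndufb8 and Ndufb2 were as uneven: Ndufb8 had -0.68, -2.24, 2.28 and 1.33, and Ndufb2 had -0.50, -1.98, 2.70 and 0.00. In these 3 genes the arrays did not share a sign.

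Of the 36 complex I genes 6 had 1 sign on all arrays, 5 of them above 0. Beside Ndufs6, Ndufc2 and Ndufv2 these were Ndufa7, with 0.64, 0.59, 0.07 and 0.22 (mean 0.38, adjusted p = 0.341), and Ndufv3, with 1.21, 0.37, 0.28 and 0.13 (mean 0.50, adjusted p = 0.330). The other Ndufv3 probes had values on both sides of 0, with 0.97, 0.48, -0.34 and -0.11 on one and 1.03, 0.20, -1.46 and -0.12 on the other. Ndufa7 and Ndufv3 are accessory subunits of the arm that faces the matrix. Ndufa2, of the same arm, had as high a mean but no shared sign, with 2.58, 0.82, -0.33 and 0.02 (mean 0.77, adjusted p = 0.455). Ndufc1, which sits beside Ndufc2 in the membrane arm, had 0.68, -0.06, 0.95 and 0.42 (mean 0.50, adjusted p = 0.305). Closest to equal signal were Ndufb9, with a mean of 0.00 and a 95% interval of -0.46 to 0.47, and Ndufs8, with 0.07 and -0.35 to 0.48. Beside Ndufb5 and Ndufv1, means below 0 included -0.43 for Ndufa8, -0.36 for Ndufa9 and -0.22 for Ndufa10, with adjusted p of 0.420, 0.458 and 0.537. Ndufa9 had -0.80, -0.72, -0.09 and 0.18, so only arrays 1 and 2 were clearly below 0. Ndufs4, Ndufs5, Ndufa1, Ndufa3, Ndufa13, Ndufb3 and Ndufb7 had means between -0.04 and 0.18. The means of Ndufa5, Ndufa6, Ndufa11, Ndufa12, Ndufb4, Ndufb6, Ndufb10 and Ndufb11 lay between 0.28 and 0.49. All genes of this second set but Ndufb4 were highest on array 3.

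The Ndufaf genes encode assembly factors that build complex I and leave it. Their 4 means ran from -0.29 for Ndufaf4 to 0.98 for Ndufaf2. A dimmer Ndufaf4 probe had a mean of 0.23, so the direction of Ndufaf4 depends on the probe. Ndufaf2 had 1.26, -0.62, 3.44 and -0.17 (adjusted p = 0.491), so its mean rested on arrays 1 and 3. Ndufaf1 had 0.98, -0.33, 1.68 and 0.53 (mean 0.71, adjusted p = 0.338), and Ndufaf3 had 2.40, 0.23, -1.62 and 0.09 (mean 0.27, adjusted p = 0.844). Over the 4 genes the mean was 1.08, -0.19, 0.64 and 0.14, or 0.42 ± 0.56.

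Complex II, succinate dehydrogenase, is shared with the citric acid cycle and is encoded wholly in the nucleus. Its 4 genes averaged -0.16, -0.32, 1.35 and 0.20, or 0.26 ± 0.75, and -0.10 without array 3. Sdha, the flavoprotein, had -0.08, -0.72, 1.39 and 0.67 (mean 0.32, adjusted p = 0.680). Sdhb, the iron-sulfur subunit, had -0.37, 0.16, 1.28 and -0.51 (mean 0.14, adjusted p = 0.854). The membrane anchors were Sdhc, with 0.04, -0.30, 0.49 and 0.39 (mean 0.15, adjusted p = 0.717), and Sdhd, with -0.24, -0.42, 2.23 and 0.24 (mean 0.45, adjusted p = 0.645). All 4 genes were highest on array 3, and in none did the arrays share a sign.

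Complex III, which oxidises ubiquinol, was represented by 9 genes with a mean of -0.00, -0.23, 0.75 and 0.00, or 0.13 ± 0.43, and -0.08 without array 3. Its catalytic subunits encoded in the nucleus had means below 0. Cyc1, cytochrome c1, had -0.35, 0.27, -0.87 and -0.55 (mean -0.37, adjusted p = 0.442), and Uqcrfs1, the Rieske iron-sulfur protein, had -1.21, -0.58, 1.10 and -0.98 (mean -0.41, adjusted p = 0.624). The core proteins Uqcrc1 and Uqcrc2 had means of -0.22 and 0.17. Uqcrh, the hinge protein at the cytochrome c1 site, was highest, with 0.72, 0.12, 2.56 and 0.56 (mean 0.99, SE 0.43, adjusted p = 0.290). It was above 0 on all arrays. Uqcrb, the brightest probe of the complex, had 0.41, -0.03, 0.58 and 0.32 (mean 0.32, adjusted p = 0.401). The small subunits Uqcrq, Uqcr11 and Uqcr10 had means of 0.09, 0.29 and 0.31. Of these, Uqcr10 was below 0 on array 2 alone, at -1.14. Dimmer probes had means of -0.70 for Uqcrq, -0.03 for Uqcr11, and 0.79 and 0.78 for Uqcr10.

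Cycs encodes cytochrome c, the soluble carrier between complexes III and IV, and its brightest probe lay below 0 on all arrays. Its ratios were -0.65, -0.43, -0.64 and -0.04, with a mean of -0.44 ± 0.28 (SE 0.19, adjusted p = 0.287), which did not pass the test. A second probe had -1.01, -0.06, -0.22 and 0.40 (mean -0.22), so the shared sign belongs to the brightest probe. The third of its 3 probes did not pass the filter on dim probes.

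Complex IV, cytochrome c oxidase, had 18 tested genes and a mean of 0.39, -0.24, 0.09 and 0.09, or 0.08 ± 0.26. By this mean, unlike in complexes I to III, array 1 was its highest. By the median over genes array 3 was highest here too, with 0.15, -0.38, 0.51 and 0.23 on arrays 1 to 4. Leaving out 1 array at a time moved the mean between -0.02 and 0.19. Several subunits exist as a general form and a form of heart and skeletal muscle, lung or testis, and none of these pairs was called. Cox4i1, the general form, had -0.27, -0.47, -0.63 and 0.25 (mean -0.28, adjusted p = 0.515). Cox4i2, the form of lung and of low oxygen, had -0.73, -0.69, -0.51 and -0.12 (mean -0.51, SE 0.19, adjusted p = 0.232) and was the lowest of the complex. Both forms thus had means below 0, and only the second was below 0 on every array.

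Cox6a1, the general form, had 0.52, 0.10, 0.93 and 0.45 (mean 0.50, SE 0.20, adjusted p = 0.266), the highest mean of the complex and above 0 on all arrays. Its muscle partner Cox6a2 had 1.50, 0.91, -0.90 and -0.42 (mean 0.27, adjusted p = 0.774), with arrays on both sides. Cox7a2l, a relative of the Cox7a subunits that joins complexes III and IV in supercomplexes, had 0.60, 0.34, 0.71 and 0.21 (mean 0.46, SE 0.18, adjusted p = 0.250). It was the second complex IV gene above 0 on all 4 arrays. The muscle form Cox7a1 had 1.50, -0.39, 0.97 and -0.62 (mean 0.37, adjusted p = 0.666), beside a mean of 0.14 for the general Cox7a2 (adjusted p = 0.840).

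The muscle form Cox8b had 0.77, -0.58, -1.91 and -0.03 (mean -0.44, adjusted p = 0.629), and the general Cox8a a mean of 0.14 (adjusted p = 0.775). The testis form Cox6b2 had 1.32, -0.51, -1.94 and -0.19 (mean -0.33, adjusted p = 0.762), and the general Cox6b1 a mean of 0.09 (adjusted p = 0.871). Cox8b, Cox6b2 and Cox6a2 were each highest on array 1 and lowest on array 3. Ndufa4, once assigned to complex I and now to complex IV, had a mean of 0.26 (adjusted p = 0.586), and its relative Ndufa4l2, induced by low oxygen, 0.30 (adjusted p = 0.555). Cox5a and Cox5b are a pair of matrix-side subunits with no tissue form. Cox5a had 0.47, -0.11, 0.78 and 0.27 (mean 0.35, adjusted p = 0.415), and Cox5b had 0.11, 0.04, -0.68 and -0.86 (mean -0.35, adjusted p = 0.478). Neither passed the test. The file places that Cox5b probe on chromosome 15 with no RefSeq transcript; the RefSeq probe, on chromosome 1, had -0.14, 0.12, 0.03 and -0.47 (mean -0.12), so the direction of Cox5b is uncertain. Cox6c had a mean of 0.22 (adjusted p = 0.551), Cox7b had a mean of 0.13 (adjusted p = 0.765), and Cox7c, the brightest probe of the complex, 0.14 (adjusted p = 0.763). Of 8 markers of skeletal muscle, 6 were above background and tested, with a median of -0.23. Among them 0 were called, where 2.09% of all genes were. The other 2 were the myosin genes Myh1 and Myh4. The part of muscle in the ratios of the muscle forms was not tested.

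Complex V, the ATP synthase, had 15 genes and the narrowest spread over arrays, with 0.04, -0.16, 0.29 and 0.20, or 0.09 ± 0.20. Without array 3 its mean was 0.02. The catalytic pair of the head stood near 0: Atp5a1 had a mean of 0.13 (adjusted p = 0.804) and Atp5b 0.06, with a 95% interval of -0.38 to 0.49 (adjusted p = 0.882). Atp5b was within that range on every array, at 0.17, -0.23, 0.21 and 0.08. Atp5h, of the peripheral stalk and the brightest of the complex, had a mean of -0.19 (adjusted p = 0.627), and its dimmer probe a mean of 0.21. Atp5l, a small membrane subunit, was highest, with 0.20, 0.03, 1.96 and 0.90 (mean 0.77, SE 0.36, adjusted p = 0.320).

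The central stalk, which turns inside the head, had means of 0.14 for Atp5c1, 0.09 for Atp5d and 0.39 for Atp5e. The brightest Atp5c1 probe was within 0.39 of 0 on every array, while Atp5e had 1.43, 0.68, -0.45 and -0.09. A dimmer Atp5c1 probe had -0.28, -0.77, -0.32 and 0.23 (mean -0.29). In the peripheral stalk, which holds the head still, Atp5f1 (now Atp5pb) had a mean of 0.08 and Atp5j 0.36. The brightest Atp5j probe was above 0 on all arrays, with 0.10, 0.37, 0.32 and 0.64 (adjusted p = 0.341). A dimmer probe with no RefSeq transcript was below 0 on all arrays, at -0.51, -0.01, -1.06 and -0.26 (mean -0.46). Atp5o, which caps that stalk, had 0.15, -1.09, -1.20 and 0.21 (mean -0.48, adjusted p = 0.466), so arrays 2 and 3 set its mean. The small membrane subunits Atp5k and Atp5j2 had means of 0.31 and 0.19. That Atp5k probe is placed on chromosome Y, so its value is uncertain. Dimmer Atp5k probes, placed on chromosomes 5 and Y, had means of 0.84 and 0.83. No gene of the head or the stalks passed the test.

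The c ring, the rotor through which protons pass, is built from 1 mature protein made by a family of genes, Atp5g1, Atp5g2 and Atp5g3, which differ in their import sequence. Atp5g1 had -1.09, -0.50, -1.15 and -0.71 (mean -0.86, SE 0.19, adjusted p = 0.115), below 0 on all arrays. Atp5g2 had 0.73, -0.41, 1.49 and 0.97 (mean 0.69, SE 0.34, adjusted p = 0.334). Atp5g3 had -1.01, 0.37, -0.55 and -0.12 (mean -0.33, SE 0.27, adjusted p = 0.547). The Atp5g1 value depends on the probe, as follows.

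**Figure D3:**
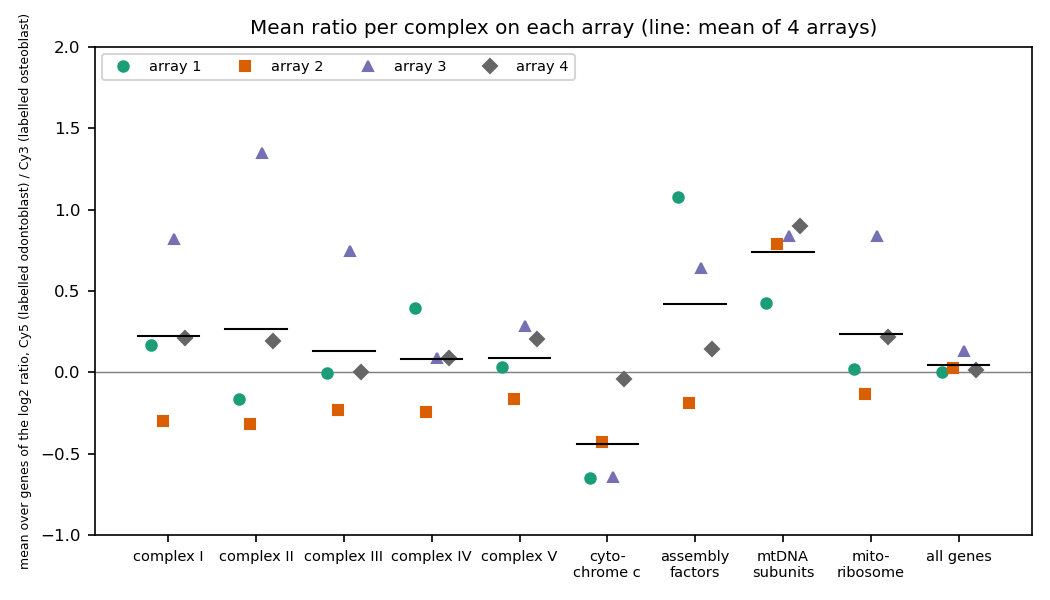
Mean over genes of the log2 ratio of Cy5 (labelled odontoblast) over Cy3 (labelled osteoblast), for each complex and for comparison lists, on each of the 4 arrays (points); the black line is the mean of the 4 arrays. Array 3 is highest for complexes I, II, III and V, while the mitochondrial DNA subunits lie above 0 on all 4 arrays.

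Probes of 1 gene mostly gave like ratios. Of the 31 chain genes with several probes above background, the means of the probes differed by under 0.5 in 22, and by over 1 in 2, Atp5g1 and Ndufb5. The brighter Atp5g1 probe (chr11:95930317-95930376, mm9, minus strand) carries only an Ensembl transcript in the file and gave the -0.86 above. The other (chr11:95934315-95934374, mm9, minus strand) carries the RefSeq transcript and gave 0.93, 0.88, 0.39 and 0.94 (mean 0.79). Each probe had 1 sign on all 4 arrays, and the signs were opposite. With RefSeq probes put first, the gene stood at 0.79 with an adjusted p of 0.124, and with its probes averaged at -0.04. Ndufb5 had -0.62 on its brightest probe, which carries only an Ensembl transcript (chr3:32647763-32647822, mm9, plus strand). Its RefSeq probes gave means of 1.11 (0.89, 1.40, 1.84 and 0.33) and 0.74 (0.05, 0.60, 3.37 and -1.04), and its remaining probe 0.08. So neither gene has a direction that holds over its probes.

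The sequences show where the probes differ. Each line gives 30 bases of the 60-base probe, with capitals for the 12-base word of the Ensembl-only probe that most probes of the array share. The RefSeq probes also hold shared words, left unmarked, which stand on 38, 10 and 7 probes in the order below.
Atp5g1, Ensembl only: ctggcgagtTGGCTCAGTGGTtaagagcgc
Atp5g1, RefSeq: tgccagtcctggtgctggagtctactgagc
Ndufb5, Ensembl only: gcaagtacgCTTAACTGCTGAaccatctct
Ndufb5, RefSeq, mean 1.11: gtgtgtccctctagtgggaagaaatgaata
Ndufb5, RefSeq, mean 0.74: cagggtagtaatgaaacctggaggtctggg
The word TGGCTCAGTGGT stands on 5 probes of the array, the printed one among them, with a median of -0.64. The word CTTAACTGCTGA stands on 4 probes, with a median of -0.43. Probes with the shared words of the RefSeq probes had medians below 0 too, at -0.31, -0.34 and -0.20 in the same order, counting those that passed the filter. The counts take exact 12-base words on the array alone, and no alignment to the genome was made. They therefore do not rank how repeated the sequences of these probes are in the genome. Whether these probes bound other transcripts was not tested.

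**Figure D4:**
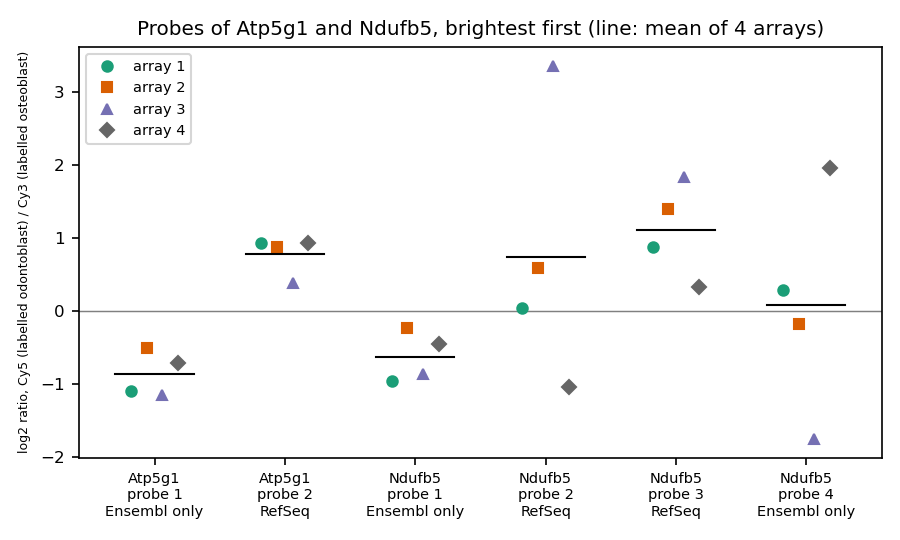
Log2 ratio of Cy5 (labelled odontoblast) over Cy3 (labelled osteoblast) of each probe of Atp5g1 and Ndufb5 on the 4 arrays (points) with the mean (line), brightest probe first, labelled by the transcripts the files give. The Ensembl-only probe 1 of each gene lies below 0 on all arrays, at means of -0.86 and -0.62, and the RefSeq probes have means of 0.74 to 1.11.

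The name rule also took 3 genes outside the chain. Cox4nb, now Emc8, is part of a membrane insertion complex of the endoplasmic reticulum and neighbours Cox4i1. It had the highest mean of all 90 genes, 1.48, from 1.32, -0.38, 4.65 and 0.31 (SE 0.84, adjusted p = 0.400), and 0.42 without array 3. Atp5s, now Dmac2l, had a mean of 0.27, and Atp5sl, now Dmac2, -0.62. These 3 genes are in the counts over 90 and out of the complex means.

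The 13 subunits encoded in mitochondrial DNA, which the name rule leaves out, all had means above 0. Their median was 0.61, against 0.17 for the nuclear chain genes, and 9 of 13 were above 0 on all arrays, where 16.1% of all genes were. At an unadjusted p under 0.05 there were 9, and 1 was called, ATP6, where 1.26% of all genes were called higher in Cy5. Their mean over genes was 0.43, 0.79, 0.84 and 0.90 on arrays 1 to 4, or 0.74 ± 0.21, and 0.71 without array 3. Array 3 did not stand apart here. The difference between the mitochondrial and the nuclear subunits was not tested, and genes of mitochondrial DNA are transcribed together and are not independent.

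The 4 highest mean ratios belonged to genes that lie side by side on the mitochondrial genome. ATP6, the proton channel subunit of complex V, had 1.14, 1.88, 2.43 and 2.21, for a mean of 1.92 (3.77-fold higher in Cy5, SE 0.26, adjusted p = 0.0408). ATP8, its partner on the same transcript, had 0.64, 1.41, 1.94 and 1.65 (mean 1.41, SE 0.26, adjusted p = 0.0771). COX3, which follows ATP6, had 0.70, 0.79, 1.04 and 1.69 (mean 1.06, SE 0.23, adjusted p = 0.107). COX2, which precedes ATP8, had 0.94, 0.73, 0.79 and 1.20 (mean 0.91, SE 0.17, adjusted p = 0.0833). All 4 genes were above 0 on all arrays, and of the 4 only ATP6 passed the test. That call was lost with any 1 array left out (adjusted p of 0.0812 to 0.180). With array 1, 2, 3 or 4 left out, 0, 0, 167 and 25 of all genes were called, against 412 with all arrays. That loss is thus not particular to ATP6. The ATP6 call was also lost with the scanner's processed signals (adjusted p = 0.0734), with a normexp offset of 0 (0.0537) and without the filter on dim probes (0.0554).

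The remaining subunits lay lower. CYTB, of complex III, had 0.53, 1.07, 0.67 and 0.92 (mean 0.80, adjusted p = 0.115). Of the complex I subunits, ND1 had a mean of 0.71, ND2 0.53, ND5 0.45, ND4 0.26 and ND4L 0.19, and COX1 of complex IV had 0.59. ND6, the only subunit gene on the other strand, was lowest, with -0.05, 0.29, 0.35 and 0.13 (mean 0.18, adjusted p = 0.599). ND3 had a mean of 0.61, but the file places its probe on chromosome 1, so its value is uncertain. The files also list predicted RefSeq transcripts for the probes of the 4 highest genes, 3 for ATP6, 3 for COX2, 2 for ATP8 and 1 for COX3, so signal from copies outside mitochondrial DNA cannot be told apart there.

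The probes of the genes at both ends of this order are given on mm9, 5′ to 3′, all 60 bases in lower case since no part is singled out. They are from chrM:7619-7678 (COX2), chrM:7870-7929 (ATP8), chrM:7965-8024 (ATP6) and chrM:9072-9131 (COX3) on the plus strand and chrM:13552-13611 (ND6) on the minus strand.
COX2: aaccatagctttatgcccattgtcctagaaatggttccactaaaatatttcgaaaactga
ATP8: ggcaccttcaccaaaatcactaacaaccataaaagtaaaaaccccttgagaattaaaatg
ATP6: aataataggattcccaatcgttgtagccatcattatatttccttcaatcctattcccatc
COX3: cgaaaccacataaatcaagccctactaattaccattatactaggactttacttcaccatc
ND6: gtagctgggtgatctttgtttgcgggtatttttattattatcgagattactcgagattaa

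**Figure D5:**
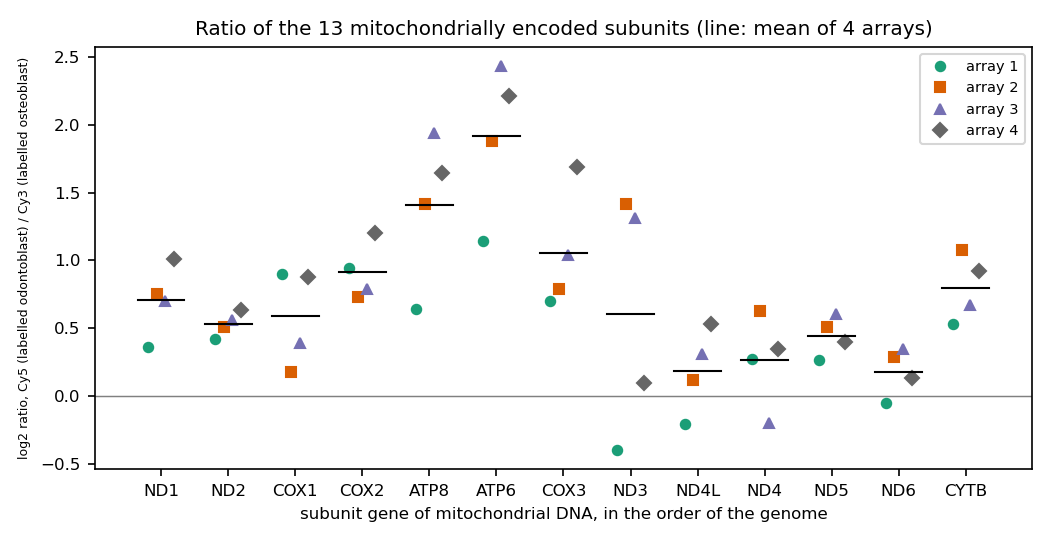
Log2 ratio of Cy5 (labelled odontoblast) over Cy3 (labelled osteoblast) of the 13 subunit genes of mitochondrial DNA, in genome order, on the 4 arrays (points) with the mean (line). Means lie between 0.18 (ND6) and 1.92 (ATP6), with the highest at ATP8, ATP6 and COX3.

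Loess sets the zero of each array separately along signal, and the mitochondrial probes lie at high signal (mean log2 signal of both channels of 15.3 to 16.1 for all but ND3). With each array centred on its median instead, the median of all genes moved to 0.20, that of the chain genes in complexes to 0.58 and that of the mitochondrial subunits to 1.55, with 12 of the 13 called. Under that centring 7.14% of all genes were called, 5.95% higher in Cy5, and 3 chain genes, 3.33% of the 90: Cox7a2l at 0.95 (adjusted p = 0.0442), Ndufs8 at 0.83 (adjusted p = 0.0495) and Uqcrb at 1.24 (adjusted p = 0.0265). The sign of the mitochondrial subunits' median was positive under both scalings, and its size was not settled.

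Factors that assemble the chain gave no call, where 2.09% of all genes were called. At that share a list of this size can hold no call. Of 42 named factors of complexes I to V 40 were on the array and tested, 19 with means above 0 and 21 below (median -0.03). Coa4, a factor of complex IV, was highest, with 0.83, 1.07, 3.28 and 0.82 (mean 1.50, adjusted p = 0.189). Atpaf1, which helps form the head of complex V, was lowest with 0.59, 0.09, -4.20 and -0.11 (mean -0.91, adjusted p = 0.592), and 0.19 without array 3. Array 3 alone set the Atpaf1 mean.

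Regulators of mitochondrial biogenesis also gave 0 calls among 20, with a median of 0.02. With 2.09% of all genes called, so short a list can hold no call. Nrf1, a transcription factor of chain genes, was highest, with 0.27, 0.17, 3.41 and -0.45 (mean 0.85, adjusted p = 0.526), and -0.00 without array 3. Mtor, a nutrient-sensing kinase, was lowest with -1.01, -0.77, -1.96 and -0.60 (mean -1.08, SE 0.27, adjusted p = 0.141), below 0 on all arrays. Ppargc1a, a coactivator of mitochondrial genes, ran from -1.81 on array 1 to 2.51 on array 3 (mean 0.22, adjusted p = 0.882). Tfam, which packages mitochondrial DNA and starts its transcription, had 0.20, 0.85, 0.19 and 0.46 (mean 0.43, adjusted p = 0.308).

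The citric acid cycle and pyruvate dehydrogenase, which feed the chain, lay mostly on the other side of 0. Of 19 genes 16 had means below 0, the median was -0.30, and 0 were called, where 2.09% of all genes were. That median was -0.14 without array 3, -0.15 with array weights and 0.09 with each array centred on its median. Cs, citrate synthase, was lowest with -0.94, -0.98, -1.16 and -0.03 (mean -0.78, SE 0.24, adjusted p = 0.190). Fh1, fumarase, was highest with 0.40, -0.14, 1.73 and 0.60 (mean 0.65, adjusted p = 0.356). Genes of the mitochondrial ribosome, which translates the mitochondrial subunits, gave 0 calls among 78, beside the same 2.09% of all genes. Their median was 0.22, or 0.01 without array 3. Their mean by array, 0.02, -0.13, 0.84 and 0.22, had the order of complex I, with array 3 highest and array 2 lowest. Mrpl48, of the large subunit, was highest (mean 1.66, adjusted p = 0.100), above 0 on all arrays, and Mrps18a, of the small subunit, lowest (mean -0.91, adjusted p = 0.254).

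Carriers and uncoupling proteins of the inner membrane held the other call. Ucp3, an uncoupling protein known from muscle, had 2.32, 3.32, 3.76 and 2.16, for a mean of 2.89 (7.42-fold higher in Cy5, SE 0.33, adjusted p = 0.0284). This was 1 call among 20 genes tested, where 1.26% of all genes were called higher in Cy5. Its probe lies at chr7:107630399-107630458 (mm9), and a second Ucp3 probe (chr7:107634291-107634350) was not well above background in either channel on any array. The call was lost with any 1 array left out (adjusted p of 0.0560 to 0.127) and with the scanner's processed signals (adjusted p = 0.0513). As for ATP6, the loss with 1 array out is not particular to the gene, since 0 to 167 of all genes were then called. Ucp2, its neighbour on the chromosome and a gene of immune cells among others, had 0.82, 3.099, 4.36 and 1.97 (mean 2.56, SE 0.58, adjusted p = 0.118).

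Some markers of macrophages were higher in Cy5 as well. Of 5 macrophage markers 3 had means above 0, with a list median of 1.08, 0.49, 3.31 and 1.08 on arrays 1 to 4. Lyz2 was called, with 5.16, 3.68, 5.81 and 3.05 (mean 4.42, adjusted p = 0.0284), while Csf1r and Cd68 had means of -0.39 and -0.10. Ucp2 (4.36), Ucp3 (3.76) and the macrophage median (3.31) were all highest on array 3. Ucp2 was lowest on array 1, Ucp3 on array 4 and the macrophage median on array 2. The part of macrophages in the Ucp2 and Ucp3 ratios was not tested. Ucp1, the uncoupling protein of brown fat, had a mean of -0.02 (adjusted p = 0.961). The 4 brown fat markers had a median of 0.10 with 0 calls, where 2.09% of all genes were called. The nucleotide carriers that exchange ADP and ATP stood near 0, Slc25a4 at 0.28 and Slc25a5 at 0.02. Chchd10, an inner membrane protein, was lowest with -1.64, -0.35, 0.63 and -1.23 (mean -0.65, adjusted p = 0.436). The testis and muscle forms Slc25a31, Ckmt2 and Cyct were not well above background.

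Promoters of the chain genes share letters that the name rule did not use. Windows from 250 bases before to 50 after the start were taken from RefSeq (GRCm38.p6) for 73 of the 89 names in the chain, and both strands were searched for exact letters, counting each motif on its own. The word GCGCANGCG, the core that NRF1 binds, stood in 30.1% of the 73 windows, against 9.63% of 17492 protein-coding genes. The word CCGGAAG, of the GABP type, stood in 23.3% against 12.9%, and AAGATGGC, of the YY1 type, in 13.7% against 3.57%. At least 1 of the 3 stood in 56.2% against 22.8%. The word TGACGTCA, of the CRE type, stood in 6.85% against 2.54%, CCAAT in 45.2% against 42.3%, the GC box GGGCGG in 45.2% against 49.2% and the E box CACGTG in 8.22% against 8.91%. The NRF1 word was chosen after a longer form had been searched. As background, NRF1, GABP and YY1 are known regulators of chain genes.

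The median ratio was 0.30 in the 22 tested genes with the NRF1 word and 0.16 in the 50 without it. With and without the word it was 0.31 and 0.14 for GABP, 0.18 and 0.20 for YY1, 0.23 and 0.17 for CCAAT and 0.32 and 0.14 for the GC box. It was -0.09 and 0.23 for the E box, and -0.22 and 0.26 for the CRE word, which only 6 and 5 genes hold. These differences were not tested. The Sdhd and Cox6a1 promoters hold both the NRF1 and the GABP word upstream of the start and are shown as examples. Those of Atp5h, Atp5l and Uqcr11 hold both upstream as well, and these genes had mean ratios of -0.19, 0.77 and 0.29. In the sequences shown the words are in capitals, GABP as its reverse complement. The NRF1 word fits both strands at a single Cox6a1 place. The Sdhd and Cox6a1 stretches are chr9:50603880-50603940 and chr5:115348959-115349129 on GRCm38.p6, both on the minus strand and written 5′ to 3′ in the gene's direction.
Sdhd: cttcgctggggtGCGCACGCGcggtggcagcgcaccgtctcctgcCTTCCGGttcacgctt
Cox6a1: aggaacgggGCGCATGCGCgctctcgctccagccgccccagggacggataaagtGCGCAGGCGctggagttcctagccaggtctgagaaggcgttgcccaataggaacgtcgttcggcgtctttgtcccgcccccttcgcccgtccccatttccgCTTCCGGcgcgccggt
Their ratios, above, were not called, and a match of letters is a description, not a binding site.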

How the data were processed

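Per the file headers, the deposited scanner files (Agilent Feature Extraction 10.7.3.1) hold the intensity and local background of each spot in both channels, not normalized. They hold as well the processed intensity, background-subtracted and dye-normalized by the software, and its log10 ratio. The deposited value table is in log10 units, and on each array its values lay within 0.001 of the scanner's log10 ratio of Cy5 over Cy3 for over 99.4% of probes; each column has a median of 0. No later step is stated in the labels. Flags of 0 or 1 in the deposited files (a score) mark outlier, saturated and bright spots.

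In limma 3.58.1 (R 4.3.3) normexp background correction used an offset of 50, and arrays were normalized by loess with control spots at weight 0. Outlier spots were set to missing, 217 to 271 per array, and 0 spots were saturated. Spots of a probe were averaged. A probe was kept if the same channel was well above background on 3 or more of the 4 arrays, which held for 44239 of 55681, and the brightest probe stood for a gene, which left 37176 features with 19686 genes. The mean log2 ratio was tested against 0 by lmFit and eBayes (two-sided), and p-values were adjusted by Benjamini-Hochberg over all features. The fit was tested on simulated data. The number of arrays, 4, limits the precision. Nothing in the labels says whether the arrays hold separate animals, so p-values measure only the spread between arrays, which may be technical. With 1 slide and 1 scan in all, there was no batch to test. Array ratios correlated pairwise at r of 0.302 to 0.486 over probes. Median signal over background was 7.10 to 8.21 in Cy5 and 10.9 to 16.0 in Cy3.

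Members, complexes and lists were chosen with earlier results of these data known. Named genes are called genes, the highest, lowest and brightest of each complex, tissue isoforms, Sdha to Sdhd, genes whose probes differ by over 1, and the extremes of each list. Other genes were named after their values were seen. A gene that the rule picks is counted but not reported here. RefSeq (GRCm38.p6) gave current names, by accession for 27325 probes, and promoters, and probe coordinates are those of the files (mm9).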

Additional observations from a re-analysis of the deposited data

Results flagged for a closer look

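In 10 of the 109 genes examined, 1 array stood apart from the other 3 by more than Dixon's 95% critical value for the gap divided by the range. Chance flags about 1 in 20 groups. In 9 of the 10 the array was array 3. The share of all genes flagged by this rule is not given here. Array 3 had the widest ratios over all genes (SD 1.31). It was the highest array in 32.3% of them and the lowest in 32.8%. The flags are therefore not shown to be particular to these genes. Array 3 was high for Ndufa12 (2.74, gap over range 0.863), Ndufa6 (1.87, 0.888), Ndufs1 (1.71, 0.845), Ndufv2 (2.27, 0.858), Uqcrc2 (1.62, 0.858), Atp5d (0.49, 0.924) and the assembly factor Coa4 (3.28, 0.899). It was low for Ndufs7 (-0.72, gap over range 0.925) and the assembly factor Atpaf1 (-4.20, 0.854). Array 2 was low for Uqcr10 (-1.14, gap over range 0.875).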

How the results depend on the processing

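Without any within-array normalization the median of all genes moved to 1.01. Of all 19686 genes 12987 were then called, 12817 of them higher in Cy5. Against that background, calls were 68 of 90 chain genes, 13 of 13 mitochondrial subunits and 21 of 40 assembly factors. They were 11 of 20 regulators, 13 of 19 citric acid cycle genes, 18 of 20 carriers and 51 of 78 ribosomal genes. Complex means were then 1.37 (I), 1.45 (II), 1.30 (III), 0.97 (cytochrome c), 1.27 (IV), 1.33 (V) and 1.45 (assembly factors). Of the chain genes named in the text, those that changed sign and were then called included Atp5g1 (0.68), Atp5h (1.46), Cox4i1 (1.08), Cycs (0.97) and Ndufaf4 (0.77). Less the median of all genes, the chain median was 0.16 in the reported setting and 0.38 under this and under median centring. Median centring called 7.14% of all genes. Its calls included 3 of 90 chain genes, 12 of 13 mitochondrial subunits, 1 of 40 assembly factors, 2 of 20 carriers and 2 of 78 ribosomal genes. Complex means under it were 0.56 (I), 0.64 (II), 0.49 (III), 0.16 (cytochrome c), 0.46 (IV) and 0.52 (V). Median centring turned the 248 higher and 164 lower calls over all genes into 1171 and 235. Mitochondrial subunit calls were 0 with processed signals, offset 0, no filter and the value table, 2 with trend and robust and 3 with array weights. Carrier calls were 0 with processed signals and the value table. All genes called were 12987 without normalization, 1406 with median centring, 248 with processed signals, 265 with the value table and 698 with array weights. Leaving out 1 array gave 0 to 0 calls in the chain, the mitochondrial subunits and the carriers, and 0 to 167 over all genes. RefSeq probes first was added after seeing the data. Of 233 alternatives for counts and complex means 195 kept the value within its limits, and of 748 for single genes 678. The cause of the others was not tested. Each array is itself a pair, so the reported test of its ratio against 0 is already the paired one. The 4 arrays form 1 group, which left no further pairing to use.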

Other observations

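Ucp3, Coa4 and Mrpl48, the highest genes of the carriers, the assembly factors and the mitochondrial ribosome, lie with Ucp2 in 1 stretch of chromosome 7 (chr7:107630399-107697696, mm9), which was looked at after their values were seen. The stretch of 67.3 kb holds 9 probes, 6 of them well above background. Of these 6, 5 had mean ratios above 1, where 87.5% of all genes had means within 2-fold. The exception was Dnajb13, between Ucp2 and Coa4, at -0.07, 0.11, -0.34 and 0.12 on arrays 1 to 4 (mean -0.05). Both Coa4 probes were alike, with means of 1.50 and 1.42. All 5 probes were above 0 on all arrays and highest on array 3. Ucp3, Coa4 and Mrpl48 had been picked as the highest of their lists, and the Ucp3 and Mrpl48 probes bound the stretch. Their high values here thus follow from that choice, and only Ucp2 and Dnajb13 were not picked so. No test was made of this neighbourhood.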
